A study of Mus musculus with 18 samples.

Results

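The central myelin genes examined here were *Mbp*, *Mog*, *Mag*, *Mobp*, *Cnp*, *Cldn11*, *Mal*, *Opalin* and *Ermn*, 9 of the 55573 Ensembl genes in the count table. They were chosen by name, and each was found through the gene symbol that the authors' own table gives for its Ensembl ID. The 18 samples were spinal dorsal horns (DHSC), taken on the side of the injected hindpaw, of adult C57BL/6J mice of 8 to 12 weeks, dissected from lumbar segments 3 to 5. There were 6 samples each of males, of F1/proestrus and of F2/metestrus females. F1 and F2 are the 2 behavioural classes into which the study sorted the females by their response to formalin, and proestrus and metestrus are stages of the estrus cycle. All 18 mice had received 2% formalin in the paw and were sampled 2 h later. No sample without formalin was analysed here, so no value below gives an effect of formalin. The estrus stage and the behavioural class were not varied separately, and their parts in a difference between the female groups cannot be told apart.

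Myelin is the multilayered membrane that oligodendrocytes wrap around axons in the brain and spinal cord, where it insulates the axon and speeds conduction. In peripheral nerve and in the spinal roots the same task falls to Schwann cells. Among the genes examined, *Mog*, *Mobp*, *Opalin* and *Ermn* are known as products of oligodendrocytes, whereas *Mbp*, *Mag*, *Cnp* and *Mal* are also made by Schwann cells. Myelin genes switch on late in the oligodendrocyte lineage, under the transcription factors SOX10 and MYRF.

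The 250 bases before the transcription start were taken from RefSeq (GRCm38.p6) for 8 of the 9 genes and searched on both strands for 2 short motifs, a core SOX motif (ACAAAG or ACAATG) and the MYRF motif (CTGGCAC or CTGGTAC). The 4 windows shown are the one with the most SOX matches and the 3 that hold a MYRF match. They are written 5′ to 3′ along the gene, and capitals mark a match of either motif in either orientation. No matches overlapped each other in these windows.
Mobp promoter, chr9:120149492-120149741, plus strand: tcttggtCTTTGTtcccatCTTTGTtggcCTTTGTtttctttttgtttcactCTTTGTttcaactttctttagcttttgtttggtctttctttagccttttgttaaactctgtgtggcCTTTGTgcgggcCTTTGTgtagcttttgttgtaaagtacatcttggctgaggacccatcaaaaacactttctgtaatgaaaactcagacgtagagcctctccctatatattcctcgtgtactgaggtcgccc
Mag promoter, chr7:30914864-30915113, minus strand: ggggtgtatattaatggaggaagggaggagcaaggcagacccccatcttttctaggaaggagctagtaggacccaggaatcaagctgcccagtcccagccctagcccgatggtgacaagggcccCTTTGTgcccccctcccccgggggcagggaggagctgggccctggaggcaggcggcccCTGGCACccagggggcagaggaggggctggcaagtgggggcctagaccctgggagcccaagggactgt
Cnp promoter, chr11:100574689-100574938, plus strand: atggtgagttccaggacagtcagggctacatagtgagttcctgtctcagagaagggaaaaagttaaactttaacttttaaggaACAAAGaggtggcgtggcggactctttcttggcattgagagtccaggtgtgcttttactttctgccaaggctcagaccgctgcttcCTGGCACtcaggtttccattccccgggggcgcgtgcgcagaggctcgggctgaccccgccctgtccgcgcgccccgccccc
Mog promoter, chr17:37023399-37023648, minus strand: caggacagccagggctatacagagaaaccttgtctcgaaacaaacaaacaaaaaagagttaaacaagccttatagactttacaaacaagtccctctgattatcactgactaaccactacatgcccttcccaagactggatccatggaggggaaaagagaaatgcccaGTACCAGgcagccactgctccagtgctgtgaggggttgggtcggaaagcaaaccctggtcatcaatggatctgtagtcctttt
The *Mobp* window held 6 SOX matches, the most of 32851 windows of the same length. That set includes the *Mobp* window, and the share with as many matches, 0.00304%, is this window alone. A SOX match occurred at least once in 25.2% of those windows, and among the genes examined in *Mobp*, *Mag*, *Cnp*, *Opalin* and *Ermn*. A MYRF match occurred in 5.93% of windows, and here in *Mog*, *Mag* and *Cnp*, at positions -83, -68 and -81 from the start. The windows of *Cldn11* and *Mal* held neither. These matches describe letters and are not measured binding sites.

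Between 73590509 and 125724156 reads were counted per sample, with a median of 102556432, and all 9 genes passed the filter on low counts. The lowest count of any of them in any sample was 2569, for *Cldn11*, so that counting error was small beside the spread between samples. Together they took 2.289% to 2.876% of a sample's counts. Levels are given as CPM, read counts scaled to a common library total after TMM normalization, and as RPKM, which further divide by the length of the exons, where genes are compared with each other. Tissue markers were detected in all groups, among them *Rbfox3* of neurons (mean 131, 128 and 135 CPM in F1/proestrus, F2/metestrus and males), *Gfap* of astrocytes (1630, 1640 and 1590 CPM), *P2ry12* of microglia (16.7, 18.5 and 17.2 CPM), *Pdgfra* of oligodendrocyte precursors (54.9, 57.5 and 55.3 CPM) and *Chat* of cholinergic neurons, including motor neurons (17, 20.8 and 14.5 CPM). Group means hide a wide spread between samples in the motor neuron markers. Their sum ran from 22.94 CPM in replicate 5 of the males to 321.6 CPM in F1/proestrus replicate 5. The tissue also held transcripts of Schwann cells, whose 10 markers together had a median of 941, 1017 and 1433 CPM in F1/proestrus, F2/metestrus and males. The columns of counts carry library numbers in 2 series, the first with replicates 1 to 3 and the second with replicates 4 to 6 of every group. In a bulk sample, fewer cells of a type and less RNA per cell cannot be told apart.

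The most abundant of the 9 transcripts encoded basic proteins of compact myelin. *Mbp* encodes myelin basic protein, which joins the cytoplasmic faces of the membrane, and with a mean of 17730 CPM it had the most counts of the 24862 genes tested over the 18 samples. *Mbp* (ENSMUSG00000041607, chromosome 18) stood between 15240 and 20480 CPM in F1/proestrus (median 16650), between 16440 and 18730 in F2/metestrus (median 18430) and between 16720 and 20180 in males (median 17740). The 3 ranges overlapped, and the highest and the lowest sample were both F1/proestrus females.

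*Mobp* encodes a small basic protein of compact myelin (myelin-associated oligodendrocyte basic protein) and had rank 3 in counts. *Mobp* (ENSMUSG00000032517, chr9:120149707-120181484, GRCm38) ranged from 3798 to 4971 CPM in F1/proestrus (median 4480), from 4346 to 4918 in F2/metestrus (median 4606) and from 4365 to 4932 in males (median 4650). F1/proestrus again held both extremes. *Mobp* shares 79 bases of exon with *Gm38642* on the same strand, so reads there could belong to either gene. Over all 18 samples its coefficient of variation (CV) was 6.44%, the lowest of the 9 genes, against a median CV of 9.26% over the 11357 genes with a mean of at least 10 CPM.

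*Cnp* encodes 2′,3′-cyclic nucleotide 3′-phosphodiesterase, which keeps cytoplasmic channels through the myelin sheath open. *Cnp* (ENSMUSG00000006782, chr11:100574904-100591729) had 1326 to 1636 CPM in F1/proestrus (median 1449), 1389 to 1867 in F2/metestrus (median 1492) and 1429 to 1628 in males (median 1463). Replicate 6 of the F2/metestrus females was the highest sample. *Cnp* shares 154 bases of exon with *Dnajc7* on the opposite strand, and whether the counting used the strand is not stated.

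*Mag* and *Mog* encode surface proteins of the immunoglobulin family. MAG lies on the innermost wrap and contacts the axon, and MOG lies on the outermost surface of the sheath. *Mag* (ENSMUSG00000036634, chr7:30899176-30914873) ranged from 608.2 to 756.4 CPM in F1/proestrus (median 691.4), from 644.5 to 902.7 in F2/metestrus (median 737.4) and from 609.2 to 692.3 in males (median 684.6). *Mog* (ENSMUSG00000076439, chr17:37010743-37023398) ranged from 198.2 to 277.7 CPM (median 238) in F1/proestrus, from 226.8 to 293.6 (median 255.5) in F2/metestrus and from 232 to 248.9 (median 238.3) in males. For both genes replicate 6 of F2/metestrus was highest, and the males lay inside the range of the females. The 6 males spanned 1.07-fold in *Mog*, against 1.4-fold in F1/proestrus and 1.29-fold in F2/metestrus. A narrower span in males was not general. In *Mal* it was 1.32-fold in males against 1.18-fold and 1.03-fold in these female groups, and in *Ermn* 1.52-fold against 1.27-fold and 1.19-fold.

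*Mal* and *Cldn11* encode proteins with 4 membrane spans. MAL sorts lipids and proteins to the myelin membrane, and claudin 11 forms the tight junctions between its layers. *Mal* (ENSMUSG00000027375, chr2:127633226-127656695) had 422.1 to 497.2 CPM in F1/proestrus (median 451.2), 453.7 to 466.5 in F2/metestrus (median 461) and 450.4 to 596.6 in males (median 503.8). The F2/metestrus females were close together, with a CV of 1.28%, whereas the males had a CV of 10.5%, and 3 of the 6 males lay above the highest female. *Cldn11* (ENSMUSG00000037625, chr3:31149920-31164324) was far lower, with 28.76 to 42.52 CPM in F1/proestrus (median 38.83), 35.04 to 40.08 in F2/metestrus (median 37.63) and 34.85 to 46.88 in males (median 39.68). Male 5 (replicate 5 of the males) was the highest sample for both genes.

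*Opalin*, a transmembrane sialoprotein of central myelin, and *Ermn*, which encodes the actin-associated cytoskeletal protein ermin, mark mature oligodendrocytes. *Opalin* (ENSMUSG00000050121, chr19:41061710-41077113) had 36.24 to 52.75 CPM in F1/proestrus (median 42.91), 41.41 to 64.06 in F2/metestrus (median 47.73) and 37.02 to 54.43 in males (median 37.71). Its CV over the 18 samples, 17.1%, was the highest of the 9 genes. *Ermn* (ENSMUSG00000026830, chr2:58045113-58052864) had 209.6 to 265.7 CPM in F1/proestrus (median 233), 228.7 to 271.8 in F2/metestrus (median 263.1) and 178.7 to 271.5 in males (median 229.7). In *Ermn* 2 of the 6 males lay below the lowest female, and none lay above the highest. *Ermn* shares 237 bases of exon with *Galnt5* on the opposite strand.

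**Figure D1:**
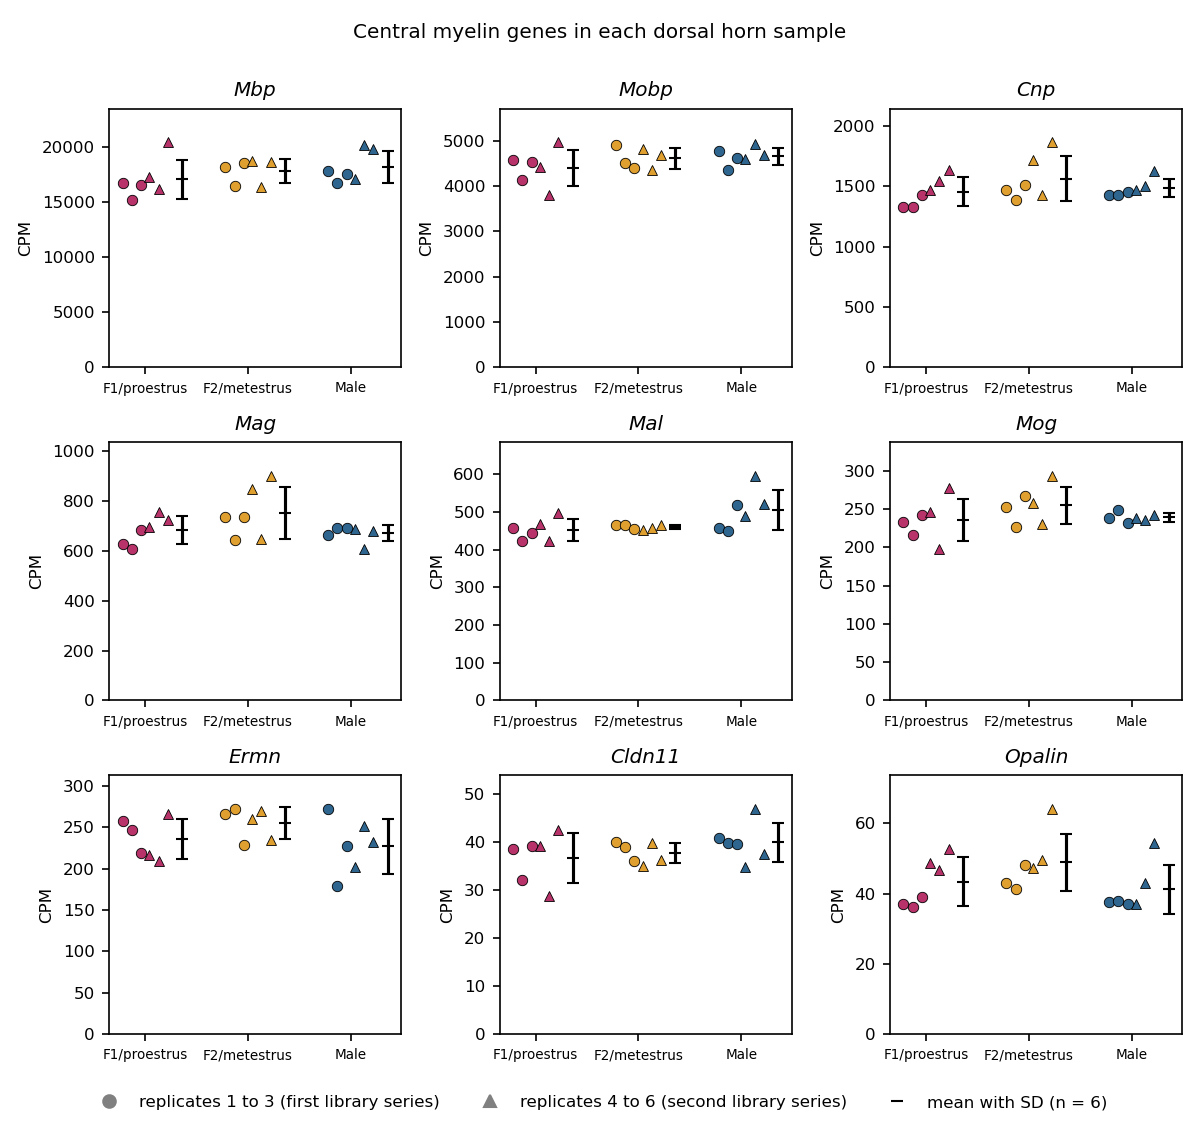
Level in CPM (vertical axes, from 0) of each of the 9 genes in every sample, by group; circles are replicates 1 to 3, triangles replicates 4 to 6, and the bar to the right of each group is the mean with its SD (n = 6). The groups overlap for every gene, Male 5 stands at the top for *Mal* (596.6 CPM) and replicate 6 of F2/metestrus at the top for *Opalin* (64.06 CPM).

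Per exon length, the 9 genes spanned 2 orders of magnitude. The length used joins the exons of all annotated transcripts of a gene, 8469 bases for *Mbp*. It can exceed that of the transcripts present, so levels, close steps and ranks by RPKM depend on the annotation. Mean levels over the 18 samples were 2094 RPKM for *Mbp*, 666 for *Mobp*, 412.8 for *Cnp*, 172.5 for *Mag*, 170.2 for *Mal*, 142.7 for *Mog*, 65.85 for *Ermn*, 20.39 for *Cldn11* and 15.11 for *Opalin*. Most steps in this order held in every sample. *Mag* and *Mal* could not be ordered, since *Mag* was the higher of them in 8 of 18 samples. *Mal* exceeded *Mog* in 17 samples and *Cldn11* exceeded *Opalin* in 16, with overlapping ranges. By RPKM *Mbp* had rank 5 of the 24849 tested genes that had an exon length. *Opalin* had rank 4246.

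**Figure D2:**
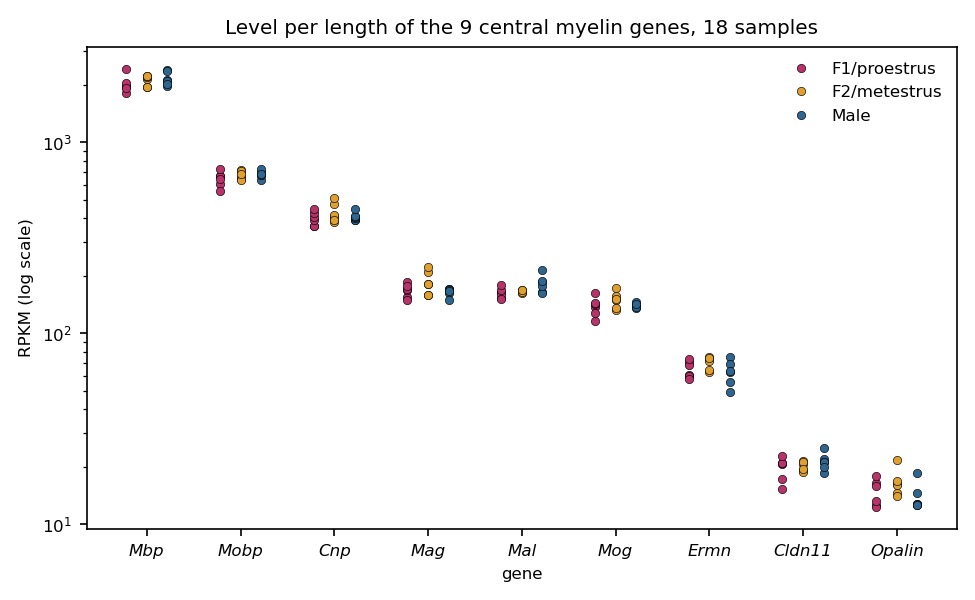
RPKM (log axis) of the 9 genes in the 18 samples, coloured by group, in falling order of the mean. *Mbp*, at a mean of 2094 RPKM, lies clear above all others, *Mag*, *Mal* and *Mog* overlap, and *Cldn11* and *Opalin* are lowest.

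The comparison of F2/metestrus with F1/proestrus asks whether the dorsal horn of the female classes differs in its transcripts. All 9 genes had a higher fitted level in F2/metestrus, but none passed the test, and the female ranges overlapped for every gene. edgeR called 0 of 24042 genes at an FDR of 5% (0% called), with 596 genes (2.48%) at an unadjusted p under 0.05. DESeq2 called 2 genes and limma voom 0, none of them among the 9. In edgeR the 9 genes each had an adjusted p of 1 and an unadjusted p above 0.05. Their log2 fold changes had a median of 0.10, where the median of all genes tested was -0.00038 and 49.8% lay above 0. Several of the genes varied together across samples, so that their signs are not 9 separate observations.

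The difference of largest size was that of *Opalin*, whose mean was 43.44 ± 6.87 CPM in F1/proestrus and 48.90 ± 8.05 CPM in F2/metestrus (SD, n = 6 each). This was a log2 fold change of 0.17 (SE 0.114, 95% interval -0.07 to 0.41), and without replicate 6 of F2/metestrus it was 0.078. *Mag* was 0.14 higher on the log2 scale (SE 0.0851, interval -0.04 to 0.32), with 2 F2/metestrus females above the highest F1/proestrus female. *Mog* and *Ermn* each had a log2 fold change of 0.11, with SEs of 0.0803 and 0.0698, and 3 F2/metestrus females exceeded all F1/proestrus females in *Ermn*. The estimates were 0.10 for *Cnp* (SE 0.0772), 0.06 for *Mobp* (SE 0.0601), 0.06 for *Mbp* (SE 0.0657), 0.04 for *Cldn11* (SE 0.0842) and 0.02 for *Mal* (SE 0.0461). The intervals of the 9 genes reached from 0.907-fold (*Cldn11*) to 1.33-fold (*Opalin*). They do not show that the levels were equal. Among replicates 4 to 6 alone the estimates of *Mbp* (-0.003) and *Mal* (-0.009) lay below 0, and that of *Cldn11* was -0.021 without F1/proestrus replicate 5. Without that sample *Mobp* was 0.027 and *Mog* 0.066, without F2/metestrus replicate 6 *Mag* was 0.082 and *Cnp* 0.047, and *Mbp* ranged from 0.033 (without F1/proestrus replicate 2) to 0.122 (without F1/proestrus replicate 6). *Mal* ranged from 0.008 to 0.055, lowest without F1/proestrus replicate 2 and highest without replicate 6 of that group.

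Other genes of the myelin programme also had small estimates without a call. Of 32 other myelin and axon-glia proteins, 27 had a log2 fold change above 0, with a median of 0.071 and 0 called. *Tmem88b*, with the smallest p of that list, had a log2 fold change of 0.12 (SE 0.0533, adjusted p of 1). All 12 oligodendrocyte transcription factors were above 0 with a median of 0.094 and 0 called, including *Myrf* (0.05, SE 0.0717) and *St18* (0.18, SE 0.0941). The estimate for *Sox10* (0.02, SE 0.109) turned negative when single samples were left out. Among 18 enzymes of myelin lipid synthesis 15 were above 0 (median 0.048), with *Ugt8a*, which makes galactosylceramide, at 0.13 (SE 0.0659). Of 13 markers of precursors and newly formed oligodendrocytes 10 were above 0 (median 0.025), with *Enpp6* at 0.14 (SE 0.0705). No gene of these lists was called.

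The comparison of the 6 males with the 12 females asks whether the sexes differ. None of the 9 genes passed the test between the sexes, and their estimates had both signs. edgeR called 49 of 24862 genes (0.197%), 0 of them among the 9, with 2416 genes (9.72%) at an unadjusted p under 0.05. Of the 9 genes 4 were higher in males and 5 lower, with a median log2 fold change of -0.02 against -0.00132 over all genes.

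*Mal* was the only one with an unadjusted p under 0.05. Its mean was 505.5 ± 53.2 CPM in males (SD, n = 6) and 456.3 ± 20.2 CPM in females (SD, n = 12), a log2 fold change of 0.15 (SE 0.0501, 95% interval 0.04 to 0.25), and 5 of 6 males lay above the female median. edgeR gave an adjusted p of 0.328, so the difference did not pass the test. Among replicates 1 to 3 alone the log2 fold change was 0.06, and among replicates 4 to 6 alone it was 0.222. The difference between the series did not pass the test (interaction of 0.15, SE 0.0895, edgeR adjusted p = 0.97). Without Male 5, the highest sample, the value fell to 0.084.

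*Cldn11* (0.10, SE 0.072), *Mbp* (0.06, SE 0.056) and *Mobp* (0.05, SE 0.0475) were the other genes with a positive estimate on the log2 scale, and without Male 5 they fell to 0.042, 0.02 and 0.02. *Opalin* had a mean of 41.17 ± 6.88 CPM in males (SD, n = 6) and 46.17 ± 7.68 CPM in females (SD, n = 12). Its log2 fold change was -0.16 (SE 0.106, interval -0.39 to 0.06), and 1 male lay above the female median. Without Male 6 it was -0.272. *Ermn* had a log2 fold change of -0.11 (SE 0.0769) and *Mag* one of -0.10 (SE 0.07), and in *Mag* 0 of 6 males exceeded the female median. *Mog* (-0.04, SE 0.0634) and *Cnp* (-0.02, SE 0.0622) were nearest to 0. With single samples left out, *Ermn* ranged from -0.178 (without Male 1) to -0.059 (without Male 2), *Mog* from -0.062 (without F1/proestrus replicate 5) to -0.02 and *Cnp* from -0.063 (without Male 6) to -0.002, the last values both without F2/metestrus replicate 6. Among replicates 1 to 3 alone *Mag* (0.005) and *Cnp* (0.015) were above 0. The adjusted p of these 8 genes lay between 0.613 and 0.917.

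**Figure D3:**
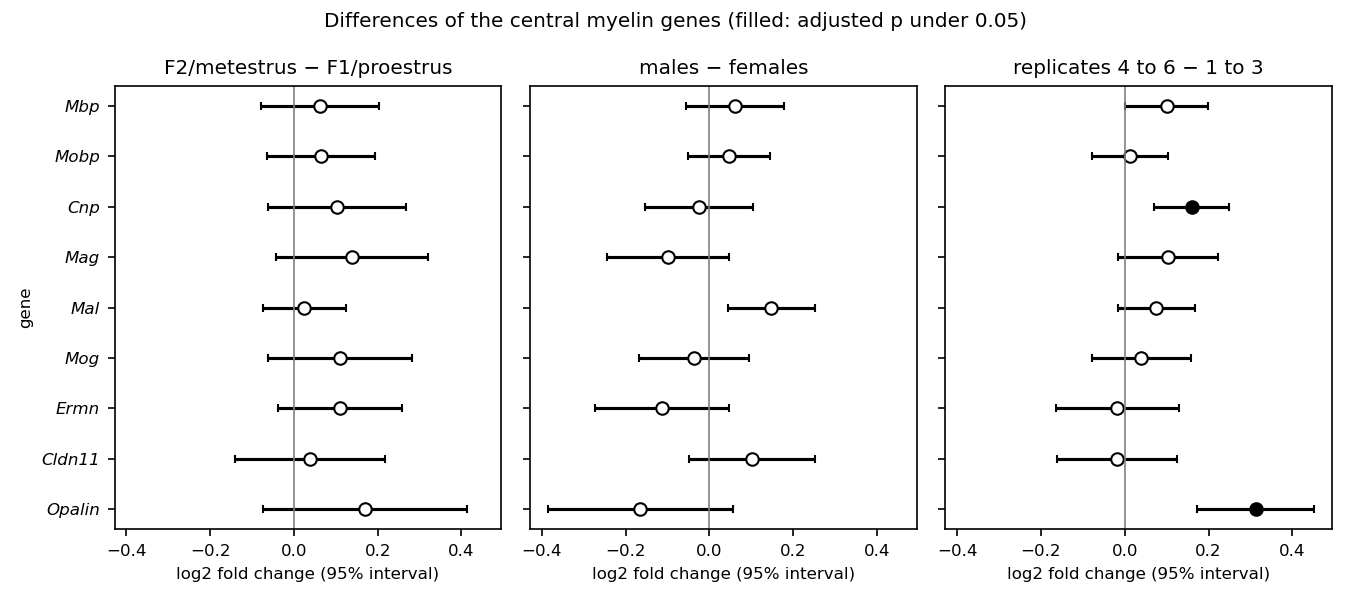
Log2 fold change of the 9 genes (horizontal axes) with its 95% interval, for F2/metestrus against F1/proestrus, males against females, and replicates 4 to 6 against 1 to 3; filled points have an adjusted p under 0.05 in edgeR. In the first panel all 9 points lie right of 0 with intervals that include it, in the second *Mal* alone has an interval above 0 (0.04 to 0.25), and *Cnp* and *Opalin* are filled in the third.

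Other genes of the myelin programme were not called between the sexes in the comparison as fitted. Among the 32 other myelin and axon-glia proteins 15 were above 0 (median -0.024) and 0 were called. *Apod*, the lipid-binding apolipoprotein D, had a log2 fold change of 0.32 (SE 0.0846, edgeR adjusted p = 0.178), which passed the threshold with the library series as a covariate (0.31, edgeR adjusted p = 0.0079). Of the 12 transcription factors 5 were above 0 (median -0.031), with *Sox10* at 0.12 (SE 0.104), *Myrf* at -0.06 (SE 0.0797) and *Zeb2*, with the smallest p, at -0.15 (SE 0.0746). Of the 18 lipid enzymes 9 were above 0 (median -0.007), led by *Elovl1*, an elongase of very long fatty acids, at 0.22 (SE 0.0728, adjusted p = 0.323). Of the 13 precursor and early oligodendrocyte markers 3 were above 0 (median -0.053), with *Gpr17* at -0.24 (SE 0.0876, adjusted p = 0.379). In the comparison as fitted none of these lists contained a called gene.

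Peripheral myelin and Schwann cell markers had higher estimates in males, with 1 of 10 past the test. All 10 had a log2 fold change above 0 in males, with a median of 0.561, and 8 had an unadjusted p under 0.05. *Ncmap*, a protein of Schwann cell myelin, passed the test (0.67, SE 0.111, edgeR adjusted p = 0.00654). *Ncmap* was not called among replicates 1 to 3 alone (0.445, adjusted p = 0.333) or 4 to 6 alone (0.849, adjusted p = 0.0618), nor in males against F1/proestrus alone (0.587, adjusted p = 0.507), and it was called against F2/metestrus alone (0.739, adjusted p = 0.0481). Against all females but without Male 5, *Ncmap* was 0.546 (adjusted p = 0.0308). The summed level of the 10 markers was 832.8 to 1513 CPM in F1/proestrus, 896.7 to 1211 in F2/metestrus and 1187 to 2625 in males. The highest sum was that of Male 5, which was also the highest sample for *Mal* and *Cldn11*.

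Over the 18 samples, after centring within each library series, *Mal* had r = 0.553 with the mean of the peripheral markers (Spearman's rho 0.292). Without Male 5 and Male 3, the samples farthest from the median, r was -0.08, so that the relation rested on them. Within the series r was 0.627 and 0.529. With the 12 neuron markers *Mal* had r = -0.759 and rho = -0.604. This relation was present among replicates 4 to 6 (r = -0.899) and not among replicates 1 to 3 (r = -0.17), and r was -0.544 without Male 5 and Male 6. The summed neuron markers were 6088 to 6572 CPM in F1/proestrus, 5807 to 6642 in F2/metestrus and 5772 to 6400 in males. The sign differed among the genes examined, with *Mag* at r = 0.581 with the neuron markers. Both lists were chosen for this after the values were seen, and r includes differences between the groups. These values are therefore descriptions with no p. The part of peripheral myelin, or of the share of neurons, in the *Mal* values was not tested.

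**Figure D4:**
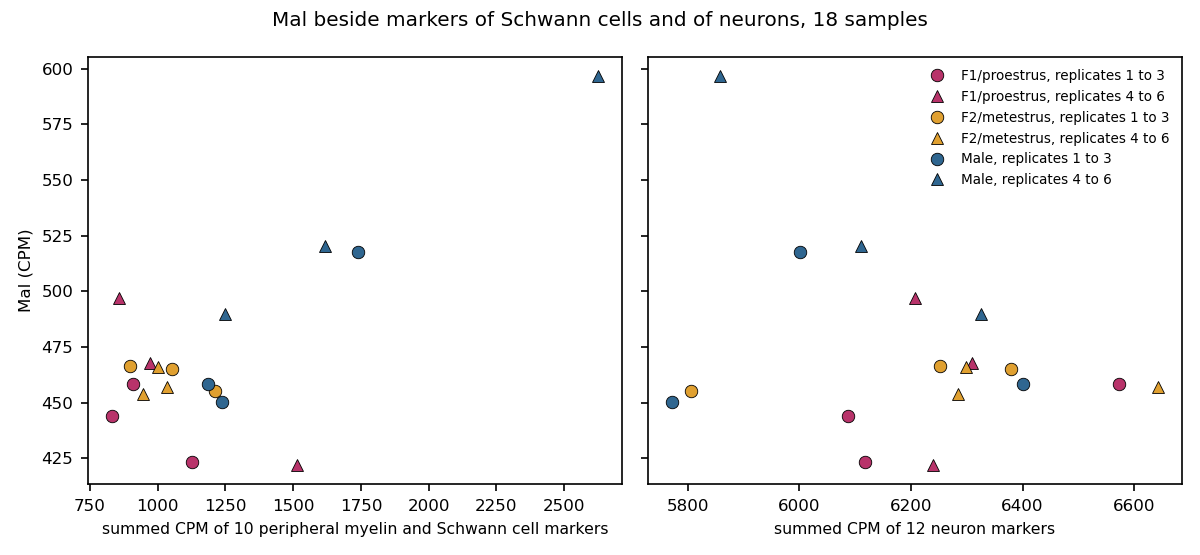
*Mal* in CPM (vertical axis, not from 0) against the summed CPM of 10 peripheral myelin and Schwann cell markers (left) and of 12 neuron markers (right) in the 18 samples; colours are the groups, circles replicates 1 to 3 and triangles replicates 4 to 6. Male 5 stands alone at 596.6 CPM of *Mal* and 2625 CPM of the peripheral markers, and the other samples form no clear line on the left.

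Lists for other cell types held no gene called by edgeR in the comparisons as fitted. Between the sexes the 12 neuron markers had 3 genes above 0 (median -0.04), the 8 astrocyte markers 4 (median -0.002), the 6 endothelial markers 1 (median -0.069), the 6 motor neuron markers 0 (median -0.588), the 5 red blood cell markers 0 (median -0.144) and the 8 microglia markers 7 (median 0.09). The nearest to the threshold was *Csf1r*, the receptor that sustains microglia, at 0.20 (SE 0.0424, adjusted p = 0.0548). *Csf1r* passed the threshold with the series as a covariate (edgeR adjusted p = 0.0184), in DESeq2 (adjusted p = 0.00569) and in limma voom (adjusted p = 0.0461). Those with the smallest p elsewhere were *Gjb6* (0.16), *Tek* (-0.20), *Slc6a5* (-0.21), *Slc5a7* (-0.62) and *Hba-a2* (-0.20), with adjusted p from 0.37 to 0.837. Between the female groups no marker of any list was called. There the peripheral list had 3 of 10 above 0 (median -0.019), neurons 3 of 12 (median -0.019), motor neurons 4 of 6 (median 0.314), astrocytes 7 of 8 (median 0.025), microglia 7 of 8 (median 0.045), endothelium 3 of 6 (median -0.019) and red blood cells 3 of 5 (median 0.016). The genes with the smallest p there were *Ncmap* (-0.15), *Slc6a5* (0.11), *Slc5a7* (0.47), *Fgfr3* (0.09), *Cx3cr1* (0.19), *Slco1a4* (-0.09) and *Hba-a2* (0.09), each with an adjusted p of 1.

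More genes differed between the library series than between the groups. With group as a covariate, 6709 of 24862 genes (27%) differed between replicates 4 to 6 and 1 to 3, 14% being higher in replicates 4 to 6, and 37.8% had an unadjusted p under 0.05. Of the 9 genes *Opalin* and *Cnp* were called, both higher in replicates 4 to 6, 2 of 9 genes against 27% of all genes, and *Mbp* had an unadjusted p of 0.0484 (edgeR adjusted p = 0.129). *Opalin* had a mean of 39.71 ± 3.85 CPM in replicates 1 to 3 and 49.30 ± 7.53 CPM in replicates 4 to 6 (SD, n = 9 each), a log2 fold change of 0.31 (SE 0.0668, edgeR adjusted p = 0.00157). *Cnp* rose from 1419 ± 60.9 to 1586 ± 142 CPM (SD, n = 9 each), a log2 fold change of 0.16 (SE 0.0431, edgeR adjusted p = 0.00905), and 5 of 9 samples of the later series exceeded all of the first in each of these genes. The other 7 genes ranged from -0.02 (*Cldn11*) to 0.10 (*Mag*). Each group has 3 samples in each series, so that the groups are balanced over the series. The size of the difference varied, with *Mag* at a mean of 682.5 and 659.5 CPM in the first and second series of males and at 673.7 and 763 CPM in those of females. No gene was called for a difference of the male effect between the series (0 of 26075 called, 0%, with 1238, or 4.75%, at an unadjusted p under 0.05).

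Across the 18 samples *Mbp*, *Mobp*, *Mog* and *Cnp* followed the other genes closely, and the remaining 5 less so. After centring within each series, the correlation of each gene with the mean of the other 8 (log2 CPM) was r = 0.811 for *Mbp*, 0.759 for *Mobp*, 0.755 for *Mog*, 0.632 for *Cnp*, 0.48 for *Opalin*, 0.429 for *Cldn11*, 0.308 for *Mal*, 0.253 for *Mag* and 0.252 for *Ermn*. Spearman's rho was 0.818, 0.785, 0.674, 0.761, 0.422, 0.294, 0.337, 0.278 and 0.23 in the same order. Without the 2 samples farthest from the median, r was 0.711 for *Mbp*, 0.752 for *Mobp*, 0.59 for *Mog* and 0.688 for *Cnp*. Within the first and the second series r was 0.908 and 0.77 for *Mbp*, 0.749 and 0.764 for *Mobp*, 0.591 and 0.822 for *Mog*, and 0.741 and 0.602 for *Cnp*. Without the 2 farthest samples of each series, r was 0.794 and 0.607 for *Mbp* and 0.15 and 0.711 for *Mobp*. It was then 0.55 and 0.747 for *Mog*, and 0.508 and 0.75 for *Cnp*. *Ermn* followed the others least within the first series (r = -0.031). The r of *Mag* differed between the series, at 0.694 in the first and 0.115 in the second. Without the 2 farthest samples of each series it was 0.238 and 0.279. These values are descriptions with no p, since the genes share libraries and normalization, and they include differences between the groups. Without F1/proestrus replicate 5, the lowest sample for *Mog*, *Mobp*, *Cldn11* and *Mal*, r of *Cldn11* was 0.208 and that of *Mal* 0.11.

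Of the 36 pairs, 30 had r above 0, with a median of 0.382. The pairs fell into a visible order, noticed in the data and not tested. *Mag* and *Cnp* were the closest pair (r = 0.868, and 0.957 and 0.845 within the series), and both varied with *Opalin* (0.567 and 0.693) and *Mog* (0.574 and 0.709). *Mbp*, *Mobp*, *Cldn11* and *Mal* formed the other cluster over the 18 samples, with r of 0.598 to 0.79 among their pairs. The place of *Mbp* in it did not hold among replicates 1 to 3. There *Mbp* had r of 0.853 with *Cnp*, 0.829 with *Mag* and 0.789 with *Mog*. Its r was 0.67 with *Mobp*, 0.539 with *Cldn11* and 0.534 with *Mal* in that series. Among replicates 4 to 6 *Mbp* had r of 0.469, -0.019 and 0.592 with *Cnp*, *Mag* and *Mog*, and 0.843, 0.625 and 0.719 with *Mobp*, *Cldn11* and *Mal*. *Mog* had similar r with *Cnp* (0.709), *Mobp* (0.646) and *Mbp* (0.643). *Mag* had negative r with *Mal* (-0.372) and *Cldn11* (-0.314), which came from replicates 4 to 6 (-0.585 and -0.524) and were positive among replicates 1 to 3 (0.372 and 0.423).

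**Figure D5:**
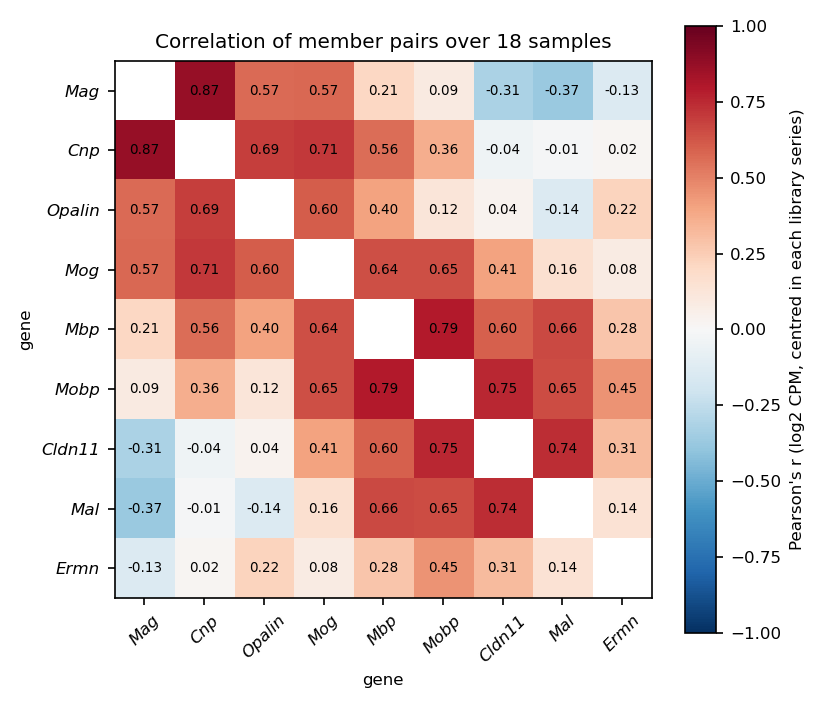
Pearson's r of log2 CPM, centred within each library series, for each pair of the 9 genes over 18 samples (colour scale from -1 to 1, values printed in the cells). *Mag*, *Cnp*, *Opalin* and *Mog* share high values at the upper left, *Mbp*, *Mobp*, *Cldn11* and *Mal* in the middle, and *Mag* with *Mal* is the lowest pair at -0.372.

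The mean of the 9 genes, relative to the average sample, ran from 0.891-fold in F1/proestrus replicate 2 to 1.13-fold in F2/metestrus replicate 6. Males lay between 0.94-fold and 1.06-fold. Among 17754 other genes with a mean of at least 1 CPM, those whose values were among the most like this mean, after centring, were *Trp53inp2* (r = 0.915), *March8* (0.84), *Klk6* (0.823), *Gltp* (0.822), *Asrgl1* (0.818), *Prkcz* (0.813), *Gm10179* (0.798), *Klhl2* (0.796) and *Gm16234* (0.795). The most opposite were *Tep1* (-0.775), *Gm13883* (-0.756), *Myadm* (-0.751), *Paqr5* (-0.739) and *Gm17435* (-0.737). These are the ends of a ranking over 18 samples and carry no test. *Klk6*, a protease of mature oligodendrocytes, was in the list of myelin proteins, and *Gltp* encodes a glycolipid transfer protein.

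By list, the median r with this mean was 0.521 for the other myelin and axon-glia proteins (29 of 32 above 0) and 0.513 for the oligodendrocyte transcription factors (10 of 12), where the median of all genes was 0.028 and 54.1% lay above 0. It was 0.292 for astrocyte markers (8 of 8), 0.237 for microglia (6 of 8), 0.175 for precursor and early oligodendrocyte markers (10 of 13) and 0.095 for the lipid enzymes (12 of 18). It lay below 0 for motor neurons (-0.038, 2 of 6), neurons (-0.106, 4 of 12), endothelium (-0.154, 2 of 6), peripheral myelin (-0.188, 0 of 10) and red blood cells (-0.451, 0 of 5). Exceptions among the myelin proteins were *Cd9* (-0.25), *Plxnb3* (-0.168) and *Apod* (-0.081), named after their values were seen.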

How the data were processed

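RNA-Seq was performed by the authors on ipsilateral DHSC of 18 mice. The authors deposited raw counts per Ensembl gene, from reads mapped uniquely to mm10 with Subread and counted on exons with featureCounts, without normalization. The strand setting is not given in the sources used here, and the labels and the methods name different library kits. A deposited table of 1 DESeq2 comparison by the authors (mean signal, log2 fold change, score, p-value) was used only to pair IDs with symbols.

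Low counts were removed by filterByExpr (at least 10 counts in enough samples and 15 in total). After TMM normalization the genes were tested with edgeR 4.0.16 in R 4.3.3 (quasi-likelihood test, Benjamini-Hochberg adjustment over all genes tested, FDR of 5%). F2/metestrus was compared with F1/proestrus among the 12 females, and males with all females among the 18 samples. Replicates were taken as separate mice, from the methods' n; whether RNA was pooled is not stated, and p-values measure the spread between these samples. Correlations used log2 CPM with a prior count of 2. Exon lengths and positions came from GENCODE vM21 (GRCm38), which held 55480 of the 55573 IDs. The test was also run on simulated data, with larger changes than those of the 9 genes and without library series. That run does not cover differences as small as theirs. The genes, the 11 other lists, the tests and the use of the library series were chosen with earlier results of these data known. Genes were named by a rule covering the 9 genes, *Myrf*, *Sox10*, defining markers, list genes past the threshold, the smallest p of each list and the genes most like or opposite to the mean of the 9; some genes the rule covers are not reported here. Alternatives were DESeq2 1.42.0, limma voom 3.58.1, other size factors, no filter on low counts, the library series as a covariate or alone, the replicate number as a block, each female group alone, values per length, and leaving out each sample. The relation of *Mal* with the lists, and leaving F1/proestrus replicate 5 out of the comparison of series and of the correlations, were added after seeing the data.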

Additional observations from a re-analysis of the deposited data

Results flagged for a closer look

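In 4 of 27 sets of 6 values (9 genes in 3 groups) a sample stood apart from the other 5 of its group by Dixon's test, which chance does in about 1 in 20 sets. *Mag* was low in Male 5, at 609.2 CPM, where the other males began at 663.2 CPM. *Cnp* was high in Male 6, at 1628 CPM. *Opalin* was high in Male 6, at 54.43 CPM, and in F2/metestrus replicate 6, at 64.06 CPM. All 4 values came from replicates 4 to 6, and 3 of them were in *Opalin* and *Cnp*, the genes called as higher in that library series; each set holds samples of both series, which the 1 in 20 does not take into account.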

How the results depend on the processing

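The count of the 9 genes past the threshold stayed at 0 in both main comparisons under the alternatives run and with each sample left out. Between the library series it stayed at 2 with DESeq2, with its size factors, without the filter and without F1/proestrus replicate 5, the only sample left out there. Of 189 log2 fold changes of these genes under alternatives 182 kept their direction and their side of the threshold, as did 276 of 279 with a sample left out. Between the female groups, replicates 4 to 6 alone turned *Mbp* to -0.003, *Mal* to -0.009 and *Sox10* to -0.021; replicates 1 to 3 alone turned *Ncmap* to 0.014 and *Hba-a2* to -0.037, and voom turned *Hba-a2* to -0.086. With single samples left out, *Cldn11* ranged from -0.021 (without F1/proestrus replicate 5) to 0.086, *Sox10* from -0.036 to 0.103 and *Hba-a2* from -0.125 (without F2/metestrus replicate 4) to 0.174. Between the sexes, replicates 1 to 3 alone turned *Mag* to 0.005, *Cnp* to 0.015 and *Myrf* to 0.037, and males against F1/proestrus alone turned *Mog* to 0.011 and *Cnp* to 0.02. Between the series, *Mobp* was -0.00035 without the filter, and without F1/proestrus replicate 5 *Cldn11* was 0.025 and *Ermn* 0.004. Without that sample r of *Cldn11* with the other genes was 0.208.

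Over all genes DESeq2 called 2 between the female groups, and edgeR 0 under the other alternatives. Between the sexes the count was 49, and 166 with DESeq2, 134 with the series as a covariate, 16 and 13 in replicates 1 to 3 and 4 to 6 alone, 13 and 22 against F1/proestrus and F2/metestrus alone, and 25 (without Male 5) to 77 (without F1/proestrus replicate 5) with a sample left out. With the replicate number as a block it was 148, and between the female groups 0. Deviations of same-numbered samples from their group correlated at -0.105 to 0.228 and not all best with each other. Those deviations include the difference between the library series, which same-numbered samples share. Taken from the mean of each group within its series, they correlated at -0.111 to 0.132. Correlations of this size cannot settle whether the numbers pair the samples. *Apod* (0.307) and *Csf1r* (0.199) passed the threshold with the block, and no call among the 9 genes changed. The cause of these changes was not tested. Groups of 6 limit the precision. Counting error was small beside the spread between samples, which includes the difference between the library series. Other sources of that spread were not tested.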
